A study of Mus musculus with 16 samples.

Results

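The effect of the hawthorn extract WS1442 on gene expression at 24 h was compared with its effect at 6 h in differentiating mouse embryonic stem cells (mESCs). The comparison used the 10 arrays with WS1442 or its vehicle DMSO, of 16 arrays in all, and 29347 genes could be tested. All cells were of the line CGR8-Myh6-GFP, which derives from CGR8 mESCs and carries a green reporter driven by the promoter of the heart muscle gene Myh6. They were kept without feeder cells, differentiated in a serum medium for which no LIF is listed, and were treated from day 4. DMSO was given to 2 samples for 6 h and to 2 samples for 24 h, and WS1442, at 0.25 mg/mL, to 3 samples for 6 h and to 3 samples for 24 h. The other 6 arrays held samples with the MeOH eluate, a fraction of WS1442, at 0.1 mg/mL, with 3 samples per time point. No allele or agent other than the reporter and these treatments distinguished the groups, and the reporter was shared by all of them. The sources name 1 reporter line. The study states for its data in general that there were 3 or more independent biological replicates, whereas DMSO had 2 samples per time point here. For the arrays, the sources do not say whether replicates came from separate cultures. The p-values therefore measure the spread between these samples, which may be technical.

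At this stage of differentiation, cells leave pluripotency through a state like the primitive streak and are sorted into mesoderm, endoderm and ectoderm by Nodal, Wnt, BMP and FGF signals. Cardiac progenitors arise from the mesoderm that these signals pattern, and they share early precursors with endothelium and blood. A cell that is treated with a plant extract can also answer with fast stress programmes such as immediate early genes and with slower metabolic ones such as the amino acid response. The 2 time points therefore separate an early layer of the response from a later one, and the question put to the data was which effects were transient, sustained, late or reversed.

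Each effect is the mean log2 intensity with WS1442 minus that with DMSO of the same time point, and the difference between time points is the effect at 24 h minus the effect at 6 h. A difference above 0 means that the effect of WS1442 was higher at 24 h, whatever its sign at 6 h. Each time point had a slide of its own, so levels at 6 h and 24 h cannot be told apart from levels on those slides, and an additive slide shift cancels only in the effects. Between 55.5% and 63.0% of gene spots on the 10 arrays were well above background, and both of these extremes were DMSO samples of 24 h. These DMSO samples also differed most among all replicate pairs, with an SD of 0.538 in their log2 difference, against 0.294 for the DMSO pair of 6 h, 0.429 to 0.484 for WS1442 at 6 h and 0.29 to 0.347 for WS1442 at 24 h. The incorporated Cy3 dye was 31.8 to 32.8 pmol per µg in WS1442 samples at 24 h and 25.8 to 26.1 in their DMSO samples, whereas at 6 h it was 26.5 to 27.6 and 23.5 to 26.4. The part of these differences in the results was not tested beyond the values given beside them.

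The labelled cell type was checked against marker genes. Pou5f1, which encodes the pluripotency factor Oct4, was bright in every group, with mean log2 intensities of 13.7 at 6 h and between 12.8 and 12.9 at 24 h, and its effects of 0.00 and 0.04 did not pass the test. The streak and mesoderm markers T, Mixl1, Eomes, Mesp1, Kdr and Pdgfra were well above background on all 10 arrays. So were markers of other lineages, such as Foxa2, Sox17 and Afp of endoderm and Sox1 of neuroectoderm. The same held for Tnnt2 of cardiomyocytes, Pecam1 of endothelium and Gata1 of blood, so this criterion did not single out a lineage. Myh6 itself, the endoderm gene Ttr and the neuronal gene Neurog2 were not well above background on every array of any group and were not tested.

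At 6 h, 45 genes passed both limits set on an effect, 2-fold in size and 0.05 for the adjusted p (33 higher and 12 lower), which is 0.153% of the genes tested. With 24 h of WS1442 the number was 418, or 1.42%, with 318 higher and 100 lower. The difference between time points itself passed both limits for 230 genes, or 0.784%, with a higher effect at 24 h for 137 and a lower effect for 93. Without a limit on size, 1639 genes passed at 6 h (4.14% of genes higher and 1.45% lower), 7250 at 24 h (12.9% higher and 11.9% lower) and 3713 for the difference (5.71% higher and 6.94% lower). The medians over all genes lay at -0.01, 0.04 and 0.04. With median scaling the difference was called higher for 112 genes and lower for 119, and with all probes kept for 112 and 118. With Cy3 incorporation as a covariate, 51 genes were called at 24 h and 193 for the difference. At 24 h every WS1442 sample had more incorporated dye than both DMSO samples, so this covariate nearly coincides with the treatment. Its slope was fitted within the 6 groups and then extended over the dye gap between the WS1442 and DMSO samples of 24 h. Calls lost with it, here and below, may reflect the dye or this extension, which was not tested. They are no measure of a weaker effect. The counts also rested on single arrays. Without the second DMSO sample of 24 h the difference was called for 1018 genes, of which 84.0% were higher, and without the first DMSO sample of 6 h for 147 genes, of which 40.1% were higher.

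Genes were sorted by which of the contrasts were called. Late genes (106) were called at 24 h and for the difference but not at 6 h, transient genes (19) at 6 h and for the difference but not at 24 h, and sustained genes (4) at both time points with 1 sign. Reversed genes (18) had opposite signs at 6 h and 24 h, each at an adjusted p under 0.05 whatever its size, with the difference called. The limit on the difference was 2-fold, and Pkdcc (1.002 on the log2 scale) and Sox17 (-1.001) lay just inside it while Bambi (0.998) and Snhg7 (-0.998) lay just outside. A further 305 genes were called at 24 h without a called difference, 21 at 6 h likewise, and 87 for the difference alone, so most genes that changed at 24 h were not shown to differ from 6 h. Since the contrasts themselves define the classes, the values of their members below are descriptions. In the gene groups below, a member counts as higher or lower at an adjusted p under 0.05, whatever its size.

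**Figure D1:**
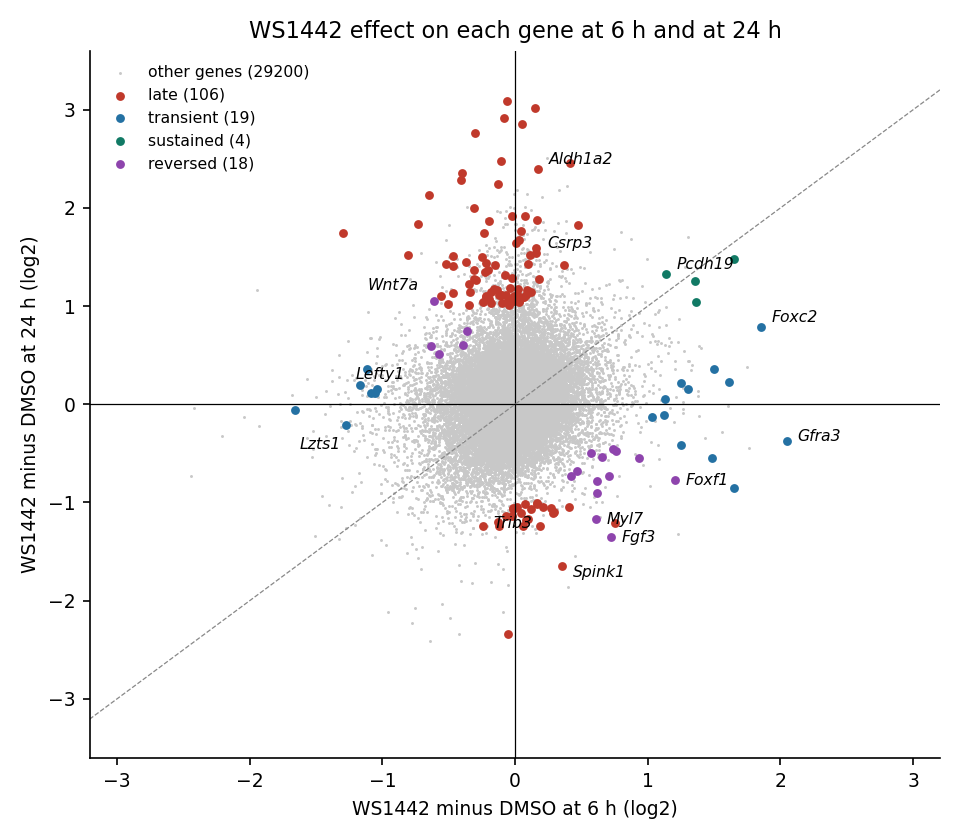
Effect of WS1442 on each tested gene at 6 h (x axis) and at 24 h (y axis), as log2 differences from DMSO of the same time point, with 1 point per gene. Coloured points are the late (106), transient (19), sustained (4) and reversed (18) genes and the dashed line marks equal effects. Late genes lie along the vertical axis, transient genes along the horizontal one and reversed genes in the upper left and lower right corners.

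Among the late genes, 81 were higher and 25 lower with WS1442 at 24 h. Aldh1a2, which encodes the enzyme that makes retinoic acid in the early embryo, had the largest difference of those measured in every group. Its log2 intensities were 5.49 and 5.33 with DMSO and 5.32, 5.51 and 5.92 with WS1442 at 6 h, and 6.46 and 6.57 with DMSO and 8.91, 8.79 and 9.02 with WS1442 at 24 h. The groups overlapped at 6 h, and at 24 h every WS1442 sample was over 2 log2 units above both DMSO samples. The effect went from 0.18 to 2.39, the latter a 5.26-fold increase, and the difference was 2.22 ± 0.216 (SE, limma, adjusted p = 0.000112). The difference had an adjusted p under 0.05 in every alternative that was run.

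Other genes of the retinoic acid pathway did not move as one with Aldh1a2. Of 23 tested retinoic acid genes, the effect was higher at 24 h for 3 and lower for 5 (background 5.71% and 6.94% of all genes), and the median difference was 0.12. Besides Aldh1a2, the higher ones were Rdh10 (-0.25 at 6 h and 0.47 at 24 h), whose enzyme supplies the retinal that Aldh1a2 oxidizes, and Dhrs3 (-0.25 and 0.31), whose enzyme turns retinal back into retinol. Those with a lower effect were the receptor genes Rarg (0.43 and -0.10), Rxra (0.12 and -0.30) and Rara (0.11 and -0.27), Cyp26b1 (-0.01 and -0.81), which encodes an enzyme that degrades retinoic acid, and Meis2 (1.15 and 0.53), a homeobox gene. Cyp26a1, the gene of another degrading enzyme, had effects of -0.44 and -0.02 with an uncalled difference of 0.41.

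Csrp3, which encodes a muscle LIM protein of the sarcomere, was another late gene. Its log2 intensities were 4.79 and 4.87 with DMSO and 4.83, 5.03 and 5.11 with WS1442 at 6 h, against 5.23 and 4.51 and then 6.27, 6.56 and 6.39 at 24 h. All WS1442 samples of 24 h lay above both DMSO samples, which themselves differed by more than any other pair of this gene. The effect was 1.54 at 24 h and 0.16 at 6 h (difference 1.38, adjusted p = 0.00891), and the call was lost with Cy3 incorporation as a covariate. The remaining late genes named by size were Slc17a6, a vesicular glutamate transporter gene (-0.21 to 1.36), Crct1, a gene of the epidermal differentiation complex (0.47 to 1.82), Serpinf2, the gene of the plasmin inhibitor antiplasmin (-0.02 to 1.29), and Wt1, a transcription factor gene of the epicardium and kidney (-0.22 to 1.09). The adjusted p of Serpinf2 was 0.0409 and that of Wt1 0.0279, and they lost the call under 19 and 11 of the alternatives. Slc17a6 lost it with Cy3 incorporation as a covariate and with base composition removed. Of the 81 genes, 39 had at least 1 of the 4 groups in which no array gave a signal well above background. One of these was Gdpd4, whose signal in both DMSO samples of 24 h was not well above background, and WS1442 raised it at least 2.76-fold at that time.

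The late genes that were lower with WS1442 at 24 h included 2 groups with known roles, amino acid metabolism and early vessels, and single genes of other kinds. Spink1, a trypsin inhibitor gene expressed in early gut endoderm, had the largest fall of those measured in every group (effects 0.35 and -1.64, difference -2.0, adjusted p = 0.00767). Its log2 intensities at 24 h were 7.63 and 7.87 with DMSO and 6.11, 6.09 and 6.13 with WS1442, with no overlap, and the call was lost with Cy3 incorporation as a covariate and without the first DMSO sample of 6 h. Parm1, the gene of a membrane mucin, had 7.35 and 7.26 with DMSO against 6.25, 6.32 and 6.22 with WS1442 at 24 h, and at 6 h WS1442 samples (5.78, 5.98 and 6.21) were above the DMSO samples (5.51 and 5.66). This gave effects of 0.41 and -1.04 and a difference of -1.45 (adjusted p = 0.000482), and the effect at 6 h did not pass the test. The same holds for Snhg4, a host gene of small nucleolar RNAs (0.06 and -1.24), Tlx2, a homeobox gene of neural crest and streak (0.29 and -1.10), and Cbln1, a synapse organizer gene (0.27 and -1.06), all without a call at 6 h. Tlx2 lost the call for the difference under 6 alternatives, among them Cy3 incorporation as a covariate and removed base composition, and Cbln1 under 2, the replicate block and without the first DMSO sample of 6 h. Bcl2l15, a gene of the Bcl-2 family, had no signal well above background in the WS1442 samples of 24 h and was at least 4.03-fold lower there, after log2 intensities of 5.16 and 5.24 with DMSO and 5.18, 4.96 and 5.31 with WS1442 at 6 h.

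**Figure D2:**
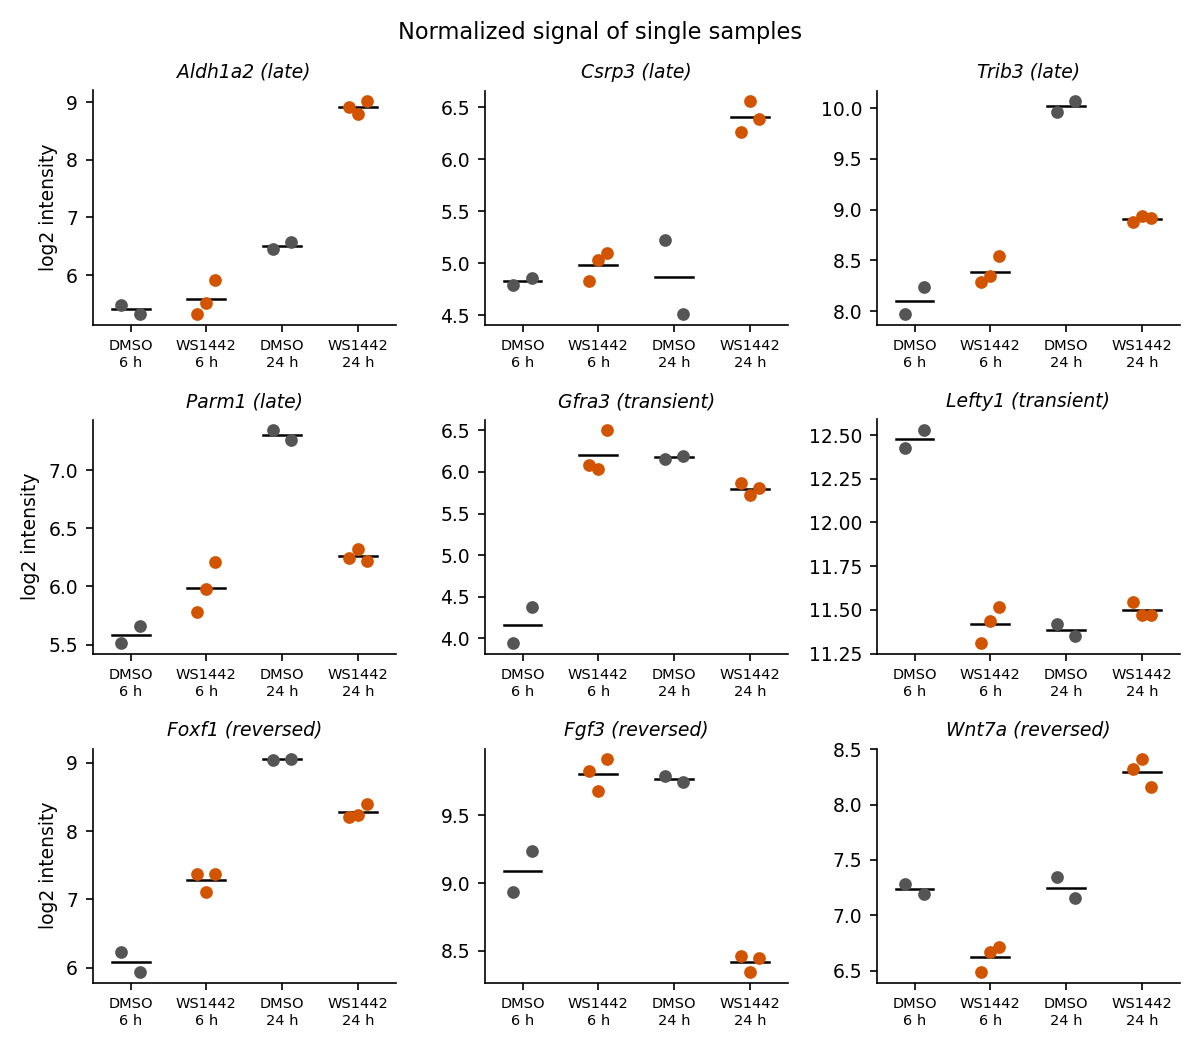
Normalized log2 intensity (y axis) of 9 late, transient and reversed genes in each DMSO (grey) and WS1442 (orange) sample at 6 h and 24 h, with 1 point per sample and a bar at the group mean. The y axes differ between genes and do not start at 0. In the reversed genes the order of the DMSO and WS1442 samples turns between the time points, and the group means of the late genes are over 1 log2 unit apart at 24 h, while at 6 h Aldh1a2 and Csrp3 overlap and Parm1 and Trib3 are apart in the opposite direction without passing the test.

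The amino acid response was among the late effects. It is driven by the transcription factor ATF4, which turns on amino acid transporters, serine, glycine and proline synthesis and its own feedback genes when amino acids are short or eIF2α is phosphorylated. Of 28 ATF4 amino acid response genes, WS1442 raised 4 and lowered 3 at 6 h, and raised 2 and lowered 20 at 24 h, where 11.9% of all genes were lower. The effect was lower at 24 h than at 6 h for 15 of the 28 and higher for none, beside 6.94% and 5.71% of all genes. The median of the ATF4 amino acid response genes went from 0.05 at 6 h to -0.47 at 24 h.

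Trib3, a pseudokinase gene that feeds back on ATF4, had log2 intensities of 7.97 and 8.23 with DMSO and 8.28, 8.35 and 8.54 with WS1442 at 6 h. At 24 h they were 9.97 and 10.07 with DMSO and 8.88, 8.93 and 8.92 with WS1442. WS1442 samples were thus the higher ones at 6 h and over 1 log2 unit the lower ones at 24 h, and the difference of -1.40 had an adjusted p of 0.00117. Slc7a5, the gene of the large neutral amino acid transporter LAT1, had 10.71 and 10.67 with DMSO and 10.65, 10.72 and 10.65 with WS1442 at 6 h, where the groups overlapped. At 24 h it had 11.04 and 11.12 with DMSO and 10.07, 9.96 and 10.04 with WS1442, and the effects were -0.02 and -1.06 (adjusted p = 5.76e-05 for the difference).

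By role, the transporters with a lower effect at 24 h were Slc7a5, Slc6a9 for glycine (0.62 and -0.90), and Slc7a1 (-0.08 and -0.71) and Slc7a3 (0.09 and -0.43) for cationic amino acids. The enzymes of serine and one-carbon metabolism were Shmt2 (-0.14 and -0.94), Mthfd2 (-0.24 and -0.89), Psph (0.05 and -0.53) and Psat1 (0.03 and -0.51). Proline synthesis was represented by Pycr1 (0.11 and -0.95) and Aldh18a1 (-0.01 and -0.76), and asparagine synthesis by Asns (-0.09 and -0.38). Atf4 itself had effects of 0.05 and -0.33, of which neither passed the test. Slc6a9 was measured by 2 probes that disagreed, with differences of -1.52 and 0.61, so its sign depends on the probe. Members that did not follow were Ddit4 (0.51 and 0.44) and Cebpb (0.49 and 0.45), which other stresses also induce and which were higher at both time points, and Slc7a11, the cystine transporter gene (-0.04 and 1.07, neither called).

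In each sample, the median of the ATF4 amino acid response genes relative to the DMSO mean of 6 h lay between -0.05 and 0.12 on the 5 arrays with DMSO or WS1442 at 6 h. At 24 h it lay at 0.65 and 0.63 with DMSO and at 0.13, 0.14 and 0.22 with WS1442. The groups did not overlap at 24 h, and the WS1442 samples lay nearer to the levels of 6 h, a comparison across slides that cannot be told apart from a difference between slides. The lower effect was called for 11 of the ATF4 amino acid response genes with the base composition of probes removed, for 12 with Cy3 incorporation as a covariate, and for 12 and 13 without the first or second DMSO sample of 24 h. MeOH eluate gave medians of -0.02 at 6 h and -0.77 at 24 h at its lower dose.

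The promoters of these genes were searched for the composite element that C/EBP and ATF factors bind, TGATGCAA, on either strand, from 250 bases before to 50 bases after the start site. It was found in 6 of the 26 ATF4 amino acid response genes with a promoter sequence, or 23.1%, against 1.03% of all 27025 genes with one. A gene was counted if any of its promoters held the element. Of these 6 genes only Pycr1 and Nupr1 had a lower effect at 24 h (2 of 13 such genes with a promoter sequence), and Chac1, Slc7a11, Fgf21 and Vldlr did not (4 of 13). With so few genes and only 1 exact element in this window, these counts cannot decide whether the element goes with the change of effect. The stretches of 60 bases around it are shown for 2 genes that had a lower effect at 24 h, 2 that did not, and Atf3, an immediate early gene with the element whose effect was higher at 24 h. Capitals mark the element in either direction, and sequences are from RefSeq, build GRCm38.p6.
Pycr1, chr11:120643818-120643877, minus strand: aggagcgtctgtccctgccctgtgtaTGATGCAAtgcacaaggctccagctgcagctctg
Nupr1, chr7:126625547-126625606, minus strand: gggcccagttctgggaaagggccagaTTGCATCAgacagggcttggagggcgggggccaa
Chac1, chr2:119351023-119351082, plus strand: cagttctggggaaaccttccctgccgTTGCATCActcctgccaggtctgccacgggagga
Slc7a11, chr3:50443637-50443696, minus strand: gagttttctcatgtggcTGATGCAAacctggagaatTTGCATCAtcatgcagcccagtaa
Atf3, chr1:191183410-191183469, minus strand: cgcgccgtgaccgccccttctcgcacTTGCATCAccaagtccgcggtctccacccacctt
Slc7a11 holds 2 copies of the element, at -66 and -47 from its start site, and the others hold it once, between -193 and -103. Effects were 0.11 and -0.95 for Pycr1, 0.14 and -0.83 for Nupr1, -0.49 and -0.59 for Chac1, and 0.44 and 1.33 for Atf3.

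Genes of the unfolded protein response, the neighbouring stress pathway of the endoplasmic reticulum, were described beside them. Of 20 unfolded protein response genes, 10 were lower at 24 h and none at 6 h, beside 11.9% and 1.45% of all genes. The effect was lower at 24 h for 5, beside 6.94% of all genes, among them Creld2 (-0.04 and -0.54) and Hsp90b1 (0.00 and -0.42). The chaperone gene Hspa5 itself had effects of -0.33 and -0.45, neither of which passed. The 5 calls depended on the setting, with 1 left among the unfolded protein response genes after base composition was removed, none without the first DMSO sample of 6 h and 11 with scaling to the 75th percentile.

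Vessel genes were also among the late genes that were lower. Of 27 tested endothelial genes, 1 was higher and none lower at 6 h, and 2 were higher and 9 lower at 24 h, beside 12.9% and 11.9% of all genes. The effect was lower at 24 h for 6, beside 6.94% of all genes, and higher for 1 (Apln, -0.27 and 0.31). Etv2, the transcription factor gene that starts the endothelial and blood lineages, had log2 intensities of 9.88 and 9.99 with DMSO and 10.07, 9.80 and 9.97 with WS1442 at 6 h, so that the groups overlapped. At 24 h it had 11.24 and 11.13 with DMSO and 10.10, 10.20 and 10.14 with WS1442. The difference was -1.06 (adjusted p = 0.000799), and with MeOH eluate the effect went from -0.30 to -2.52.

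Tal1, a partner of Etv2 in the same precursors, went from -0.13 to -1.19 (its other probe gave a difference of -3.05 in place of -1.07), the fenestration gene Plvap from 0.21 to -1.05, and Egfl7, a gene of the vascular matrix, from 0.26 to -0.59. Sox17, which marks both arterial endothelium and endoderm, went from -0.24 to -1.24, although its other probe gave a difference of 0.67 in place of -1.001. Cdh5, the gene of VE-cadherin, had no signal well above background at 6 h and lay between 3.77 and 5.01 at 24 h, so its called difference of -1.85 rests on signals at the floor. Kdr (-0.07 and -0.03), Pecam1 (-0.13 and -0.02) and Tek (0.18 and 0.17) did not pass at either time point. In such bulk samples, fewer cells of a type and less RNA per cell cannot be told apart. Between 4 and 8 of the endothelial genes had a lower effect at 24 h under all the alternatives, and 3 in place of 9 were lower at 24 h with Cy3 incorporation as a covariate.

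Transient effects were fewer, with 12 genes higher and 7 lower at 6 h. Gfra3, which encodes a receptor subunit for the GDNF family ligand artemin, had log2 intensities of 3.94 and 4.37 with DMSO and 6.08, 6.03 and 6.50 with WS1442 at 6 h. The values of 24 h were 6.16 and 6.19 with DMSO and 5.87, 5.72 and 5.80 with WS1442. The early rise was 4.13-fold (effect 2.05), and the effect of -0.38 at 24 h did not pass the test, which made the difference -2.42 (adjusted p = 0.000464). WS1442 samples of 6 h lay near the level that both DMSO samples had at 24 h, on the other slide.

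Foxc2, a forkhead gene of cardiac and paraxial mesoderm, rose 3.62-fold at 6 h (5.78 and 5.76 with DMSO, 7.64, 7.51 and 7.72 with WS1442). At 24 h all WS1442 samples (8.49, 8.45 and 8.38) still lay above both DMSO samples (both 7.66), and the effect of 0.79 passed the test without reaching 2-fold. Its effect thus shrank by 1.07 rather than ending, and it is transient only under the limit of size. Bmp5, a BMP ligand gene, went from 1.65 to -0.86 (difference -2.50, adjusted p = 0.00515). It was well above background on 1 of 2 DMSO arrays at 6 h (1.86 and 3.43), and its other probe gave a difference of -1.49. Fgf15, an FGF ligand gene, went from 1.04 to -0.13, the water channel gene Aqp1 from 1.25 to -0.42, and Rnu11, a small nuclear RNA gene of the minor spliceosome, from 1.61 to 0.23. Aqp1 lost the call under 4 alternatives and Rnu11 with Cy3 incorporation as a covariate. Rora and Foxd1 were not well above background with DMSO at 6 h and were at least 2.09-fold and at least 1.35-fold higher there, and the other probe of Rora gave a difference of -0.10 in place of -1.14.

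Among genes with a transient fall, Lefty1 encodes an inhibitor of Nodal that Nodal itself induces. Its log2 intensities were 12.42 and 12.53 with DMSO and 11.31, 11.44 and 11.51 with WS1442 at 6 h, and 11.42 and 11.35 and then 11.55, 11.47 and 11.47 at 24 h. The fall of 1.06 on the log2 scale at 6 h was followed by an effect of 0.11, and the difference of 1.17 had an adjusted p of 0.000161. Lzts1, a gene of a cell cycle and microtubule protein, had 11.02 and 11.08 with DMSO and 9.81, 9.73 and 9.79 with WS1442 at 6 h, and 10.47 and 10.62 and then 10.33, 10.34 and 10.34 at 24 h. Here the effect shrank from -1.27 to -0.21, which still passed the test (adjusted p = 0.0202), and its 3 probes gave differences between 0.45 and 1.14. The other named members, Trem2, Ntsr2 and Gsdma, encode an immune receptor, a neurotensin receptor and a gasdermin. Ntsr2, with an adjusted p of 0.0414, lost the call under 15 alternatives, and Trem2 and Gsdma lost it with base composition removed and without the first DMSO sample of either time point. The probes of Trem2 and Gsdma hold 39.1% and 34.7% C, against a median of 26% over all genes.

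WS1442 samples of Lefty1 lay near the same level at both time points, and DMSO samples lay lower at 24 h, on the other slide. The end of its effect was shared by only some of the genes in its pathway. Of 24 Nodal and TGF-beta genes, 2 were higher and 6 lower at 6 h, beside 4.14% and 1.45% of all genes. At 24 h, 5 were higher and 5 lower, beside 12.9% and 11.9% of all genes. The effect was higher at 24 h for 4 and lower for 3, beside 5.71% and 6.94%. Pmepa1 (-0.54 and 0.09), a target that dampens TGF-beta signalling, and the Nodal partner gene Foxh1 (-0.31 and 0.27) had effects that changed sign like that on Lefty1. Lefty2 (-0.69 and -0.67) and the co-receptor gene Tdgf1 (-0.46 and -0.32) were lower at both time points, with uncalled differences of 0.02 and 0.13. Nodal itself had effects of 0.00 and 0.47 and an uncalled difference. Among the 24 primitive streak and early mesoderm genes, 6 were lower at 6 h and 7 at 24 h, beside 1.45% and 11.9% of all genes. The effect on the anterior streak gene Gsc went from -0.98 to 0.24 and that on Mixl1 from -0.99 to -0.47. Evx1 (-0.69 and -0.58) and Wnt3 (-0.41 and -0.48) were lower at both. The mean log2 intensity of Mixl1 did not rise with WS1442 (9.93 at 6 h and 9.69 at 24 h). With DMSO it was 10.92 and 10.15, and these levels are compared across slides.

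Only 4 genes were sustained above 2-fold, all of them higher. Pcdh19, the gene of a protocadherin adhesion molecule, is the only annotated one measured in all groups. Its log2 intensities were 5.28 and 5.52 with DMSO and 6.33, 6.55 and 6.75 with WS1442 at 6 h, and 5.68 and 5.42 and then 7.05, 6.71 and 6.87 at 24 h. All WS1442 samples lay above both DMSO samples at each time point. The effects were 1.14 and 1.33, and the 95% interval of their difference, from -0.29 to 0.68, includes both a smaller and a larger effect at 24 h. Its sustained call was lost with Cy3 incorporation as a covariate. Sparcl1, a matrix protein gene, was near the floor on most arrays and has no bound.

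Smaller effects were sustained more often, most clearly in lipid synthesis. The genes of cholesterol and fatty acid synthesis are switched on together by SREBP factors when cell sterols run low. Of 36 sterol and fatty acid synthesis genes, 25 were higher at 6 h and 26 at 24 h, beside 4.14% and 12.9% of all genes, and 22 were higher at both, as 476 of the 29347 genes were. The median effect was 0.40 at 6 h and 0.39 at 24 h. Hmgcs1, the gene of an early enzyme of cholesterol synthesis, had effects of 0.82 and 0.61, and Insig1, a feedback gene of the pathway, 0.73 and 0.74. The effect was lower at 24 h than at 6 h for Mylip (0.56 and -0.29) and for Mvk (0.23 and -0.19), and higher for Acly, Fads1, Msmo1 and Fasn. Abcg1 (-0.35 and -0.78), a cholesterol export gene that sterols induce, and Mvk were the 2 members that were lower at 24 h. With Cy3 incorporation as a covariate 8 in place of 26 were higher at 24 h, and without the first DMSO sample of 6 h 11 in place of 25 were higher at 6 h. MeOH eluate gave medians of 0.46 and 0.17 over the sterol and fatty acid synthesis genes.

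Over all genes, 4.14% were higher at 6 h and 12.9% at 24 h, and the effect was higher at 24 h for 5.71%. Of 22 interferon-stimulated genes, 3 were higher at 6 h and 14 at 24 h, and the effect was higher at 24 h for 7 and lower for none. They included Oasl2 (-0.01 and 0.65), the RNA sensor gene Ifih1 (-0.11 and 0.50) and B2m, a subunit of MHC class I (0.33 and 0.72). The count lay between 4 and 8 under the alternatives, and 3 interferon-stimulated genes were higher at 24 h with Cy3 incorporation as a covariate. Of 25 immediate early genes, which growth factors and stress induce within minutes, 11 were higher at 6 h and 17 at 24 h. The effect was higher at 24 h for 7 of the immediate early genes. Under the alternatives 5 to 19 immediate early genes were higher at 24 h, with 5 under Cy3 incorporation as a covariate, and 2 to 8 had a higher effect. Atf3 (0.44 and 1.33), the nuclear receptor gene Nr4a1 (0.63 and 1.18) and the phosphatase gene Dusp1 (0.31 and 0.76) had a higher effect at 24 h, and Egr2 (1.02 and 0.43) had the larger value at 6 h with an uncalled difference.

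Atf3 was separated in all samples at both time points. Its log2 intensities were 10.08 and 10.12 with DMSO and 10.40, 10.59 and 10.62 with WS1442 at 6 h, and 9.94 and 9.97 and then 11.29, 11.24 and 11.33 at 24 h. Of 28 p53 target genes, 8 were higher at 6 h and 14 at 24 h, beside 4.14% and 12.9% of all genes. The effect was higher at 24 h for 6 of them, beside 5.71% of all genes. Among these 6 were the cell cycle inhibitor gene Cdkn1a (0.39 and 0.88) and Mdm2 (0.29 and 0.96), which encodes the ligase that degrades p53. The 2 probes of Mdm2 gave differences of 0.67 and 0.03. The 6 calls fell to 1 among the p53 target genes without either DMSO sample of 6 h and to 2 with scaling to the 75th percentile, and the 14 fell to 1 with Cy3 incorporation as a covariate.

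Of 35 tested hypoxia and glycolysis genes, 13 were higher and none lower at 6 h, and 8 were higher and 7 lower at 24 h. Over all genes, 4.14% were higher at 6 h and 12.9% were higher and 11.9% lower at 24 h, so the shares of 24 h were not far from the background. The effect was lower at 24 h for 10, beside 6.94% of all genes, such as the oxygen sensor gene Egln1 (0.36 and -0.38), the collagen hydroxylase genes P4ha1 (0.34 and -0.33) and P4ha2 (0.32 and -0.34), and Pdk1 (0.31 and -0.37), a brake on pyruvate oxidation, whose other probe gave a difference of 0.42 in place of -0.68. It was higher for Slc2a3, a glucose transporter gene (-0.20 and 0.43). The number with a lower effect was 3 after base composition was removed, 4 without the first DMSO sample of 6 h and 18 with scaling to the 75th percentile, and the median difference of the hypoxia and glycolysis genes lay between -0.48 and -0.15 in all of the settings.

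**Figure D3:**
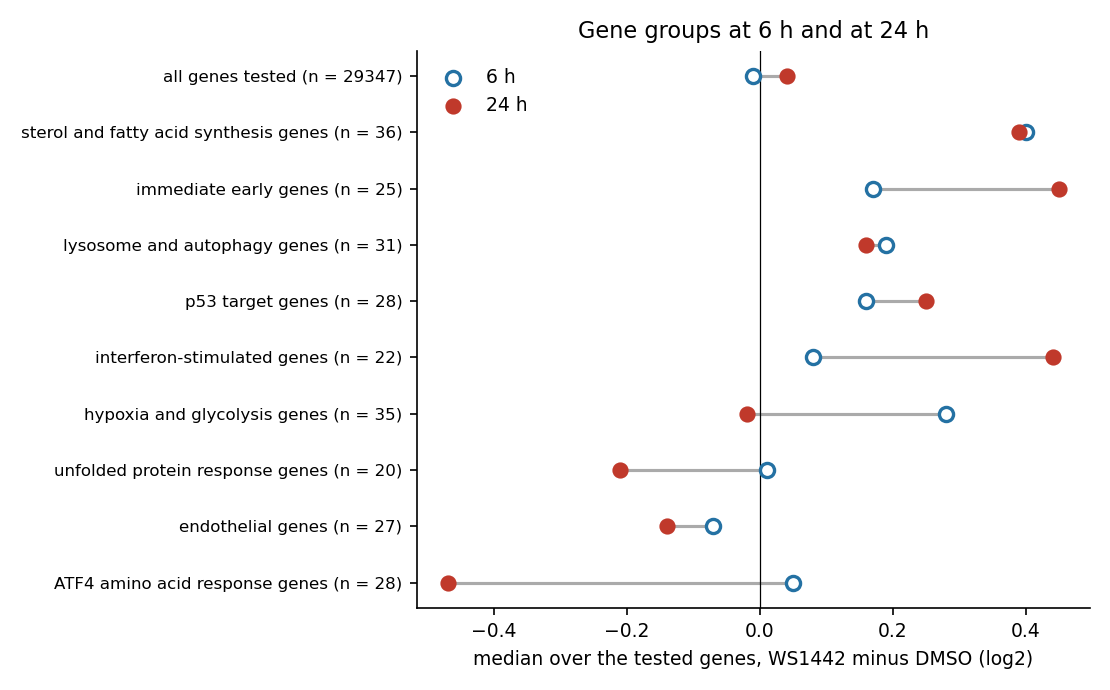
Median effect of WS1442 (x axis, log2 difference from DMSO) over the tested genes of 9 gene groups and over all genes, at 6 h (open circles) and 24 h (filled circles). The ATF4 amino acid response genes go from 0.05 to -0.47, the sterol and fatty acid synthesis genes stay at 0.40 and 0.39, and the median of all genes lies at -0.01 and 0.04.

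Reversed effects went up and then down for 13 genes and down and then up for 5. Fgf3, an FGF ligand gene, had log2 intensities of 8.93 and 9.24 with DMSO and 9.82, 9.68 and 9.91 with WS1442 at 6 h. At 24 h it had 9.79 and 9.75 with DMSO and 8.46, 8.34 and 8.45 with WS1442. The groups did not overlap at either time point, with WS1442 above at 6 h and below at 24 h. The effects were 0.72 and -1.35, the difference was -2.07 (adjusted p = 5.22e-05), and the 3 probes of the gene gave differences between -2.07 and -1.59.

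Foxf1, a forkhead gene of lateral plate and splanchnic mesoderm, had 6.23 and 5.94 with DMSO and 7.37, 7.11 and 7.38 with WS1442 at 6 h. At 24 h it had 9.04 and 9.05 with DMSO and 8.21, 8.23 and 8.40 with WS1442. The effect turned from a 2.30-fold rise to a 1.70-fold fall. Myl7, the gene of the atrial myosin light chain and one of the first sarcomere genes of the heart, had 7.65 and 8.01 with DMSO and 8.53, 8.14 and 8.65 with WS1442 at 6 h, and 9.37 and 9.66 and then 8.25, 8.31 and 8.48 at 24 h. Its effects were 0.61 and -1.17, and WS1442 samples of both time points lay in nearly the same range while only the DMSO samples of 24 h lay above it. Wnt7a, a Wnt ligand gene, ran the other way with 7.28 and 7.19 and then 6.49, 6.67 and 6.71 at 6 h, and 7.35 and 7.16 and then 8.32, 8.41 and 8.16 at 24 h (effects -0.61 and 1.05, difference 1.66).

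The remaining reversed genes that went up and then down were Slc6a9, Zbtb7c, Spn, Rasgrp3, BC147527, Amhr2, Atoh8, L1cam, Phlda2 and Smtnl2, and those that went down and then up were Pkdcc, Septin4, Fam222a and 1 transcript without a gene symbol. Spn, the gene of the surface protein CD43, had probes with differences of -1.44 and -0.15. Atoh8, a target gene of BMP signals, went from 0.65 to -0.54, and Phlda2, an imprinted growth gene, from 0.42 to -0.73. Of the 13 genes that went up and then down, 12 had a called difference with base composition removed, 13 with Cy3 incorporation as a covariate, and 13 and 12 without the first or second DMSO sample of 24 h. Of the 81 late genes that were higher, the corresponding numbers were 31, 20, 31 and 67, and of the 25 that were lower 13, 16, 19 and 21. They were 8, 6, 10 and 9 of the 12 genes with a transient rise, 2, 4, 1 and 6 of the 7 with a transient fall, and 2, 4, 3 and 5 of the 5 that went down and then up.

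BMP, FGF and heart genes did not reverse as groups. The counts below stand beside 4.14% of all genes higher and 1.45% lower at 6 h, and 12.9% and 11.9% at 24 h. The effect was higher at 24 h for 5.71% of all genes and lower for 6.94%. Of 23 BMP genes, 4 were higher and 3 lower at 6 h and 1 higher and 5 lower at 24 h. The BMP target gene Id2 went from 0.52 to -0.24, while the BMP inhibitor gene Bambi went from 0.07 to 1.07. Of 28 FGF and ERK feedback genes, the effect was higher at 24 h for 7, mostly targets of FGF signals such as Dusp4 (-0.06 and 0.55), Spred2 (-0.24 and 0.28) and Etv4 (-0.23 and 0.27). It was lower for 4, namely the ligand genes Fgf3 and Fgf15 and the receptor genes Fgfr2 (0.68 and -0.16) and Fgfr3 (0.11 and -0.48). Of 29 cardiac progenitor transcription factors, 3 were lower at 6 h and 8 at 24 h, where Tbx2 (-0.73 and -1.57), Tbx3 (-0.04 and -1.03), Gata4 (-0.15 and -0.72) and Hand2 (0.08 and -0.49) were lower and Mef2c (0.10 and 0.48) was higher. Of 34 sarcomere and cardiomyocyte genes, 4 were higher and 6 lower at 24 h, and the cardiomyocyte marker Tnnt2 was lower then (-0.11 and -0.35). The effect was higher at 24 h for 5 of the 34, among them Csrp3, Myom1 (-0.07 and 0.69) and Myl3 (-0.67 and 0.25). It was lower for Myl7 and Tnnc1 (0.07 and -0.42).

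Of 27 neuroectoderm genes, 8 were higher at 24 h and 2 at 6 h, and the effect was higher at 24 h for 6, beside 12.9%, 4.14% and 5.71% of all genes. With Cy3 incorporation as a covariate these counts of neuroectoderm genes were 1 at 24 h and 1 for the difference, and with base composition removed 4 and 2. The median probe of the list holds 32.7% C, against 26% over all genes. Those with a higher effect included Pax6 (-0.43 and 0.78), Sox1 (-0.05 and 0.41) and Nes (0.06 and 0.78). Pax6 was well above background on 1 of 2 DMSO arrays of 24 h. Other genes that the study raised behaved in different ways. Foxq1, a forkhead gene, was lower at both time points (-1.17 and -0.70) with a difference of 0.48 that passed the adjusted p (0.0438) and not the limit of size. Adamts9, a metalloprotease gene, was lower at 6 h (-0.53) and did not pass at 24 h (-0.26), and its difference of 0.26 did not pass, but its 3 probes gave differences between 0.26 and 1.48. Bdnf, a neurotrophin gene, had effects of -0.12 and 0.43.

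The base composition of the probes moved with the difference between time points, which bears on all classes with a called difference. Over the 14664 genes of above-median brightness, the difference correlated with the share of C in the probe (Pearson r = 0.55, Spearman rho = 0.58) and, in the other direction, with the share of G (-0.49 and -0.52). These are correlations across genes on the same arrays, which are not independent replicates. For the change of the MeOH eluate effect the values were 0.06 and -0.05 (Pearson). The median difference rose from -0.30 for probes with under 12% C to 0.38 for those with 40% and over. The 664 genes whose probe has 6 or more C in a row had a median difference of 0.50 with WS1442 and -0.01 with MeOH eluate, and the 102 genes with 8 or more C had 0.84 and -0.08.

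Of the 81 late genes that were higher, 16 had such a run of 6 or more C, or 19.8%, against 2.26% of all genes and none of the 25 late genes that were lower. The runs were most frequent among late genes whose change was larger with WS1442 than with MeOH eluate. There were 19 of these at an adjusted p under 0.05, and 12 of them (63.2%) had a run. The probe stretches below, each 30 of the probe's 47 to 56 bases as the array's design lists them, show 7 of the 12 with the longest run in capitals and, for contrast, 2 of the 7 genes without a run of 6 C. These genes were chosen after their values were seen, because their effects at 6 h were near 0 and those at 24 h were alike in size.
Zic4: aaacattttaatatCCCCCCCCCttttttt
Tfap2b: caacttatcttgCCCCCCCCCacttcctca
Mcf2: CCCCCCCCCaggttaatatatttaaacatg
Adamts3: atctatatcatCCCCCCCCCaacttcactg
Hs3st3a1: ttattttagaaCCCCCCCCCttttctttgt
Bik: tttctgactgtCCCCCCCCCtttttatata
Slc39a14: gCCCCCCCCCCaaaggttgaaagattccac
Mn1: ccctttaaattcttttccctccctcttttc
Gucy1a1: catggtttcattgtggagaactctaaactt
The first 7 genes encode unrelated proteins, including the neural transcription factors Zic4 and Tfap2b and the zinc transporter Slc39a14, and their effects at 24 h lay between 1.03 and 1.12. Mn1 (-0.10 and 1.11) and Gucy1a1 (0.03 and 1.09) had the same size of effect without the run. The probe of Aldh1a2 has at most 3 C in a row and that of Foxf1 at most 2. Leaving out all probes with 6 or more C in a row changed the called differences from 230 to 209 and late genes from 106 to 89, and removing base composition as a linear term changed them to 109 and 55, of which 88 and 40 were also called in the reported analysis. The cause of the relation between base composition and the difference was not tested.

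**Figure D4:**
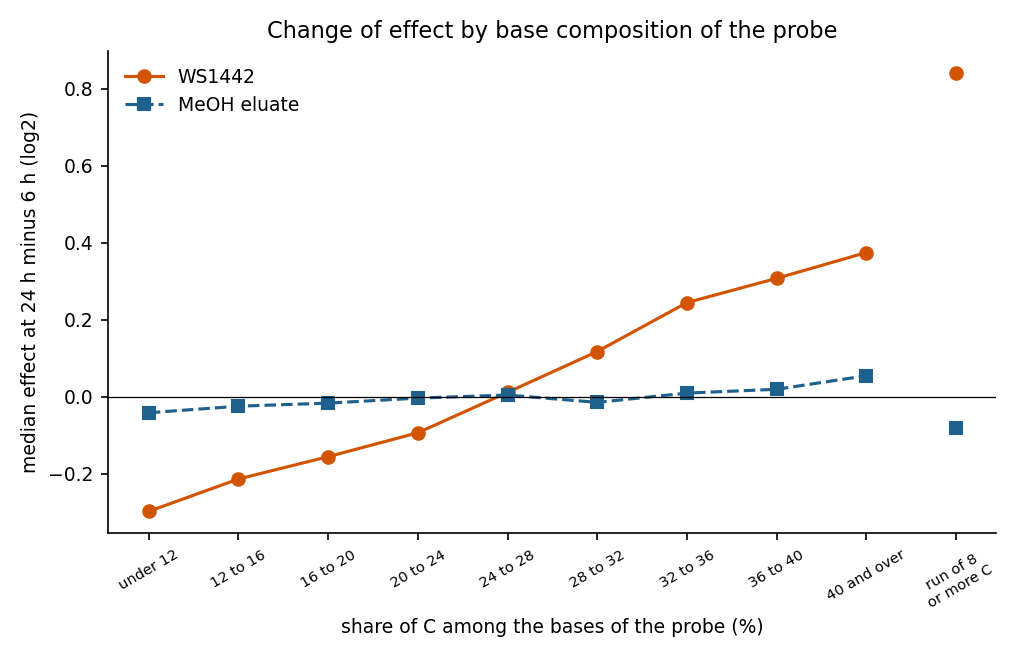
Median difference between time points (y axis, effect at 24 h minus effect at 6 h, log2) over genes of above-median brightness, by the share of C in the probe (x axis, percent) and, at the right, for probes with a run of 8 or more C. Circles show WS1442 and squares MeOH eluate. The WS1442 medians run from -0.30 to 0.38 and reach 0.84 with the run, while those of MeOH eluate stay between -0.08 and 0.06.

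The change of effect between time points was set beside that of the MeOH eluate, which was given at 0.1 mg/mL and so at another dose than WS1442. It differed between the treatments for 224 genes, or 0.763%, a test in which the DMSO samples cancel. At an adjusted p under 0.05 whatever the size, it differed for 17.2% of all genes. On that rule 19 of the 81 late genes that were higher changed more with WS1442 and none more with MeOH eluate, and of the 13 genes that went up and then down 6 changed more with MeOH eluate and none with WS1442. The members were chosen for their change with WS1442, and 19 of 81 is near the background, so nothing is read from these counts. Myl7 went from 1.05 to -2.02 with MeOH eluate (adjusted p = 0.00155 for the change against WS1442), and Lefty1 from -1.84 to 0.31 (adjusted p = 0.000172). Lzts1 went from -3.45 to -1.15, a change of effect that was larger by 1.24 than with WS1442. Aldh1a2 (0.19 and 2.77), Fgf3 (0.88 and -1.34) and Gfra3 (2.53 and 0.22) had changes that did not pass the test of a difference between the treatments.

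The number of calls depended on single arrays and settings. For the 30 genes named by size, 775 combinations of gene and alternative were computed, of which 702 kept the call, 73 lost it and none changed sign. These genes were named for large values and separated samples on the same arrays. Unchanged signs were therefore likely from the start, and nothing is read from them. Slc6a9, one of these genes, had another probe with the opposite sign. The 16 genes that kept an adjusted p under 0.05 in every alternative include Aldh1a2, Parm1, Trib3, Snhg4, Gfra3, Fgf15, Lefty1, Fgf3, Foxf1, Myl7 and Wnt7a.

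**Figure D5:**
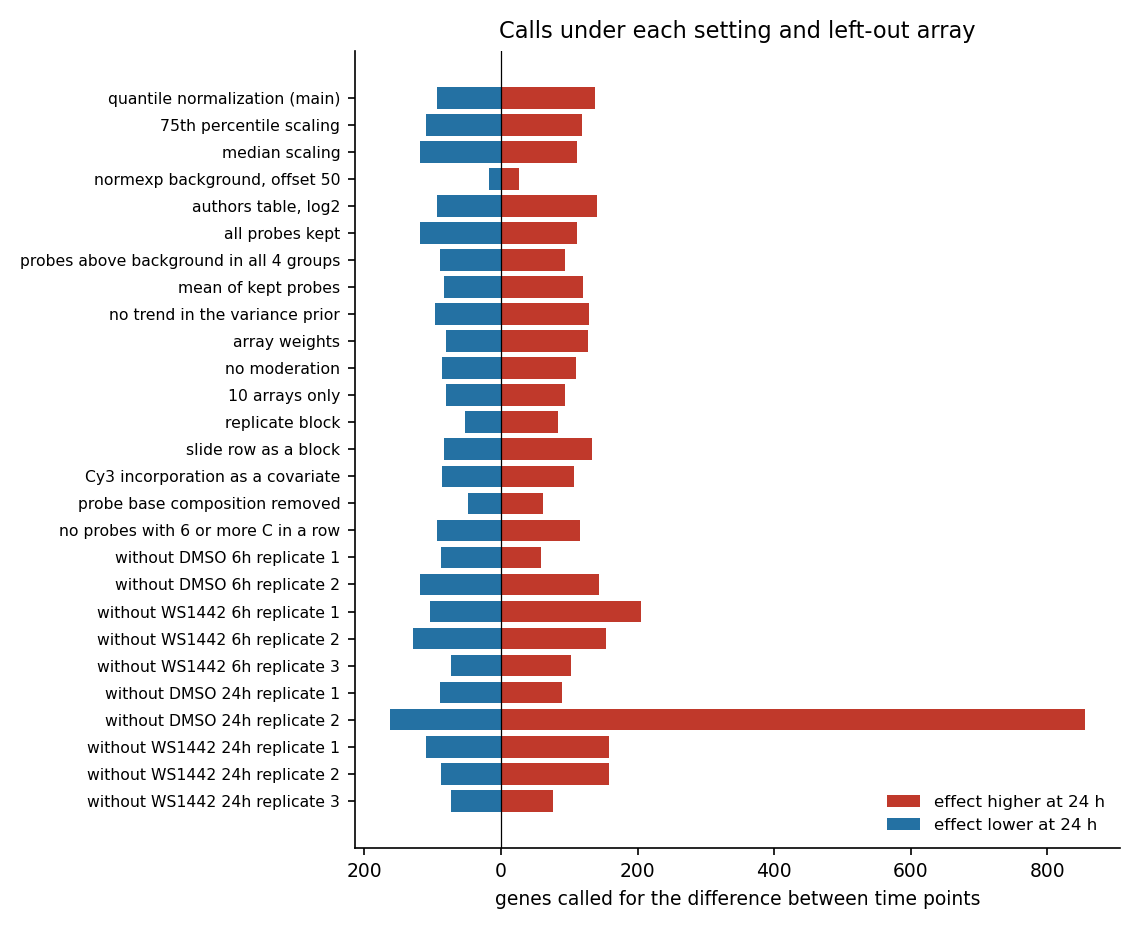
Number of genes called for the difference between time points (x axis) under each setting and with each of the 10 arrays left out (y axis), with a higher effect at 24 h to the right and a lower effect to the left. The reported setting gives 137 and 93, normexp background correction gives 44 in all, and leaving out the second DMSO sample of 24 h gives 855 and 163.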

How the data were processed

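RNA of all 16 samples was hybridised to 1-colour Agilent arrays by the authors, and the deposited scanner files hold 62912 spots per array, 61473 of them gene spots of 60273 probes. The values used were the deposited processed intensities of the scanner software, which are background-subtracted, and the deposited table of the authors holds quantile normalized linear intensities of the same arrays, with 59448 rows and a median of 23.7 in each column. Of the 44062 probes with 1 gene symbol, 32916 took it from RefSeq by accession, and the others from the names in the array annotation. Of those names, 2088 were kept as listed and can be old.

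Spots of a probe were averaged, intensities were quantile normalized over the 16 arrays and put on the log2 scale (the authors' quantile normalization was followed), and 36729 probes were kept, each of which had 1 or more groups whose arrays all gave a signal well above background. A gene was represented by its brightest probe, differences of other probes are given, for genes under the naming rule below whose values are printed, where they lay over 0.5 apart on the log2 scale, and 92 missing values remained. The fit used limma 3.58.1 in R 4.3.3 (lmFit on 6 groups, eBayes with trend), with Benjamini-Hochberg adjustment over 29347 genes and limits of 0.05 and 2-fold. Other steps used Python 3.11.15, pandas 2.3.3, numpy 2.4.6 and matplotlib 3.10.9. On simulated data with 50 genes of each class changed by 2 on the log2 scale among 29347, 42 late, 38 transient, 46 sustained and 43 reversed genes were recovered and 0 others were called. The median absolute difference between time points in the data was 1.35 for late, 1.2 for transient and 1.23 for reversed genes. The simulation thus does not give the error of the reported classes.

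Members and the 37 gene lists were chosen with earlier results of these data known. Up to 6 genes per class and direction (for reversed genes, 6 over both directions) were named by size, among those well above background on at least 1 array of each group whose WS1442 samples all lay beyond both DMSO samples where the gene was called, and others by the lists or the study's question. Over 14 pairs, same-numbered samples had correlated deviations between -0.235 and 0.305, with 2 over 0.1, so the numbers do not pair the samples. Array number and signal over background limit the precision. "At least" folds compare a group with the lowest signal well above background. The alternatives were 18 settings and 10 left-out arrays, 1 at a time. Of the settings, 2 were chosen after seeing the data: leaving out probes with 6 or more C in a row, and removing from each array the linear part of the deviations that follows the base shares and base runs of the probe. Some genes are not reported here.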

Additional observations from a re-analysis of the deposited data

Results flagged for a closer look

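The test of the difference between the effects at 24 h and 6 h separated 230 genes, and the same change differed between WS1442 and MeOH eluate for 224 genes. Named genes were listed because this difference itself passed the test, with the values on the log2 scale as follows. For late genes with a higher effect at 24 h it was 2.22 for Aldh1a2, 1.57 for Slc17a6, 1.38 for Csrp3, 1.35 for Crct1, and 1.31 for both Serpinf2 and Wt1. For late genes with a lower effect it was -2.0 for Spink1, -1.45 for Parm1, -1.40 for Trib3, -1.39 for Tlx2, -1.33 for Cbln1 and -1.30 for Snhg4.

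For genes with a transient rise it was -2.50 for Bmp5, -2.42 for Gfra3, -1.67 for Aqp1, -1.38 for Rnu11, -1.17 for Fgf15 and -1.07 for Foxc2. For genes with a transient fall it was 1.47 for Trem2, 1.36 for Ntsr2, 1.2 for Gsdma, 1.17 for Lefty1 and 1.06 for Lzts1. For reversed genes it was -2.07 for Fgf3, -1.97 for Foxf1, -1.78 for Myl7, 1.66 for Wnt7a, -1.52 for Slc6a9 and -1.44 for Spn. Groups had 2 or 3 samples, too few for a test of single outlying samples.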

How the results depend on the processing

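The reported setting called 230 genes for the difference, 106 late, 19 transient, 4 sustained and 18 reversed genes. With normexp background correction the numbers were 44, 7, 7, 0 and 8. With Cy3 incorporation as a covariate 21 genes were late, 7 transient, 0 sustained and 5 reversed. This covariate nearly coincides with the treatment at 24 h, and its slope from within the groups is extended over that dye gap. Whether the dye or this extension lowered the numbers was not tested, so they are no measure of a weaker effect. With base composition removed 109 had a called difference, 55 were late and 10 transient. With 10 arrays only 10 were transient and 2 sustained, with scaling to the 75th percentile 2 were sustained, and among genes above background in all 4 groups 62 were late and 1 sustained. Without a limit of size the numbers were 3713, 2645, 422, 607 and 146, and at an unadjusted p under 0.05 with 2-fold they were 589, 281, 45, 9 and 48. The remaining settings kept each number within 1.5 times, and the deposited table of the authors gave 235 called differences, 226 of them shared.

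With the replicate block the numbers were 136 for the difference, 64 late, 7 transient and 6 reversed genes. The replicate numbers did not pair the samples, so this is no measure of a weaker effect.

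Leaving out 1 array gave 147 to 1018 called differences, 61 to 803 late, 11 to 63 transient, 2 to 8 sustained and 11 to 36 reversed genes. Without the second DMSO sample of 24 h there were 1018 called differences and 803 late genes. Without the first DMSO sample of 6 h there were 147 and 62, with 11 reversed and 2 sustained, and without the third WS1442 sample of 24 h 149 and 61. Without the second DMSO sample of 6 h 36 genes were reversed and 47 transient, and without the first DMSO sample of 24 h 12 were transient. Without the first WS1442 sample of 6 h 63 genes were transient and 8 sustained, without the second 40 were transient, and without the third 11 were transient, 2 sustained and 11 reversed. Higher effects at 24 h made up 59.6% of the calls, 48.5% with median scaling, 48.7% with all probes kept, 84.0% without the second DMSO sample of 24 h, 40.1% without the first DMSO sample of 6 h, 72.3% at an unadjusted p and 45.2% without a limit of size. Where a left-out array left 1 DMSO sample, that sample was assumed to vary like the other groups. The causes were not tested.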

Other observations

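Other gene groups had the following counts at an adjusted p under 0.05, beside 4.14% of all genes higher at 6 h, 12.9% higher and 11.9% lower at 24 h, and 6.94% with a lower effect at 24 h. Of 31 lysosome and autophagy genes, 12 were higher at 6 h and 14 at 24 h, and 3 of the lysosome and autophagy genes were higher at 24 h with Cy3 incorporation as a covariate. Of 29 epithelial-mesenchymal genes, 7 were higher at 6 h and 16 at 24 h, and all 7 of these were higher at both, while 3 of the epithelial-mesenchymal genes were higher at 24 h with that covariate. Of 25 imprinted genes, 7 were higher at 6 h, 5 were higher and 5 lower at 24 h, and the effect was lower at 24 h for 7, among them Peg3 (0.24 and -0.25), and for 3 of the imprinted genes with that covariate.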
